A study of Homo sapiens with 6 samples.

Results

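The genes that copy DNA and supply its building blocks were followed across RNA sequencing of PC3 cells after silencing of Mic60. The list holds 54 genes of replication licensing, replication forks, E2F factors and deoxynucleotide synthesis. They were picked by name with no measured value in the rule, but with earlier results of these data known. Ensembl identifiers of the count table were matched to symbols, and 53 of the 54 were found among its 57736 rows. No row was matched to UHRF1, a partner of DNMT1 in the copying of DNA methylation. Its level was not analysed here, and it enters only the promoter counts. PC3 is a human prostate cancer line, and the groups were 3 libraries of PC3 cells with an siRNA against Mic60 (siMic60) and 3 libraries of PC3 cells with a control siRNA (siCTRL). The sample titles call these groups KO and WT, whereas the column names give siRNAs, and the siRNA names are used here. The siRNA sequence, the dose and the time after transfection of these cells are not stated in the sources used. The study's supplement speaks in general of independent biological replicates without naming these libraries, and the labels only number them. The p-values therefore reflect only how far these libraries differ, some of which may be technical.

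Cells copy their genome once per division. In G1, the origin recognition complex, CDC6 and CDT1 load the ring-shaped MCM2 to MCM7 helicase onto origins, and at the start of S phase CDC45 and the GINS complex turn it into an active helicase. Polymerase alpha and primase then lay down primers, polymerases delta and epsilon extend them with the PCNA clamp, and thymidylate synthase, thymidine kinase and ribonucleotide reductase supply the deoxynucleotides. Most of these genes are transcribed in a wave at the G1/S boundary that E2F factors control, and their mRNAs are common markers of proliferating cells.

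The QuantSeq 3′ libraries are read from the tail end of mRNA molecules, so counts carry no term for transcript length, and their totals were 6644495 to 8779877 counts. Levels are CPM, counts scaled to library size after TMM normalization, and 3 counts in a library correspond to 0.342 to 0.452 CPM by library totals. IMMT, the gene of Mic60, averaged 7.23 ± 1.36 CPM in siMic60 libraries and 90.2 ± 1.14 CPM in siCTRL libraries (SD, n = 3 each), or 8.12% of the siCTRL level. KRT8, KRT18, EPCAM, CD44 and VIM, which PC3 cells express, were present in every library, and KLK3, a gene of androgen-responsive prostate cells, was at 0 counts in all of them. All 5 of these present markers changed: KRT8, CD44 and VIM rose to 153%, 149.8% and 152% of the siCTRL level, and KRT18 and EPCAM fell to 69.5% and 59.5%. Scaled by library totals, the 9 leukocyte markers summed to 0.342 to 1.30 CPM in siMic60 and 0.953 to 1.51 CPM in siCTRL libraries, and the endothelial markers VWF and CDH5 were at 0. On the same scale, the 6 fibroblast markers summed to 46.7 to 66.3 CPM in siMic60 and 287 to 371 CPM in siCTRL libraries. Most of that sum was COL1A1, which fell to 18.7% of the siCTRL level. COL3A1 had 6 to 23 counts in siMic60 and 7 to 15 counts in siCTRL libraries and was not called, COL1A2, LUM and PDGFRB had at most 8 counts in any library, and DCN had 0 in all. The part of these marker changes in the results was not tested.

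After Mic60 silencing, 36 of the 53 replication genes rose, 2 fell (MCM3 and POLD2) and 15 did not pass the test. A gene was called at a Benjamini-Hochberg adjusted p under 0.05 in edgeR's quasi-likelihood test, which every adjusted p below refers to. All 53 had passed the filter on low counts, at least 10 in 3 or more libraries. Of all 14653 genes tested, 17.7% rose and 17.9% fell. The median log2 fold change was 0.63 over the 53 genes and 0.0022 over all genes tested, and single genes of the list ran from −0.55 to 1.68. In 37 of the 53 genes all siMic60 libraries lay above all siCTRL libraries, and in 2 they lay below, against 23.7% and 24.1% of all genes tested. Summed over the list, the level was 3429, 3629 and 2978 CPM in the siMic60 libraries, against 1949, 2425 and 2528 CPM in the siCTRL libraries, a ratio of means of 1.45. Because RNA was taken from whole cultures, more cells in S phase and more mRNA per cell cannot be told apart.

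The siCTRL libraries were not alike for these genes. The siCTRL replicate 1 library had the lowest siCTRL level for 44 of the 53 genes (83.0%), against 37.9% of all genes tested. Its median gene of the list was at 69.5% of the mean of siCTRL replicates 2 and 3, against 100.4% over all genes tested. Without this library, 30 genes of the list rose, 1 fell, and the median log2 fold change was 0.49. Among the siMic60 libraries, replicate 3 was lowest for 36 of the 53 genes, against 32.7% of all genes tested. The mean log2 CPM of the list was 5.32, 5.34 and 5.12 in siMic60 replicates 1, 2 and 3, against 4.33, 4.76 and 4.82 in siCTRL replicates 1, 2 and 3, so each siMic60 library stood above each siCTRL library.

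**Figure D1:**
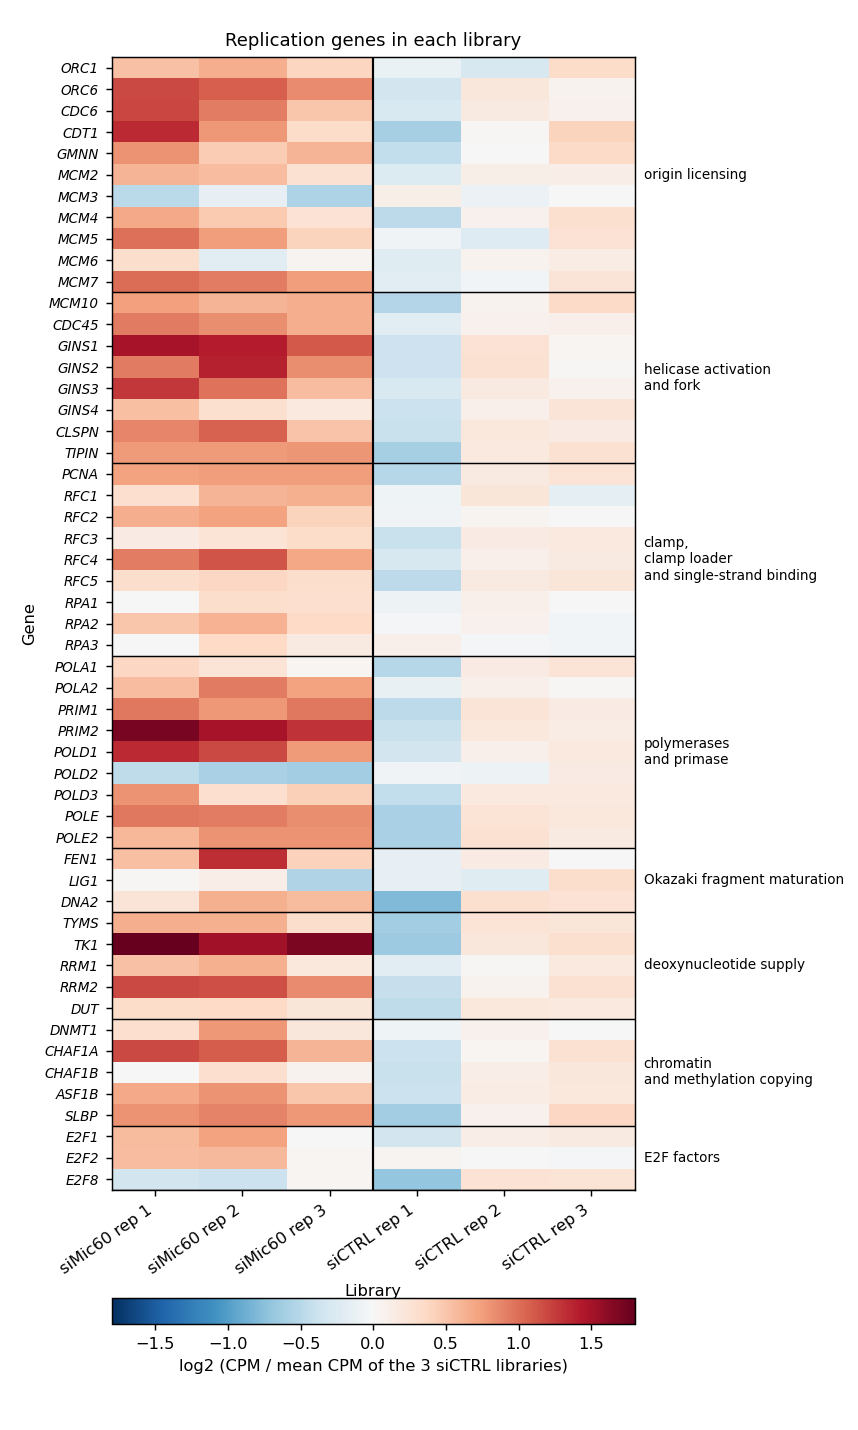
Level of each of the 53 replication genes (rows, grouped by role) in each library (columns, siMic60 left of siCTRL), as log2 of its CPM over the mean CPM of the 3 siCTRL libraries, in color. Red fills most of the siMic60 columns, MCM3 and POLD2 are blue there, and siCTRL replicate 1 is the palest or bluest siCTRL column for most genes.

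**Figure D2:**
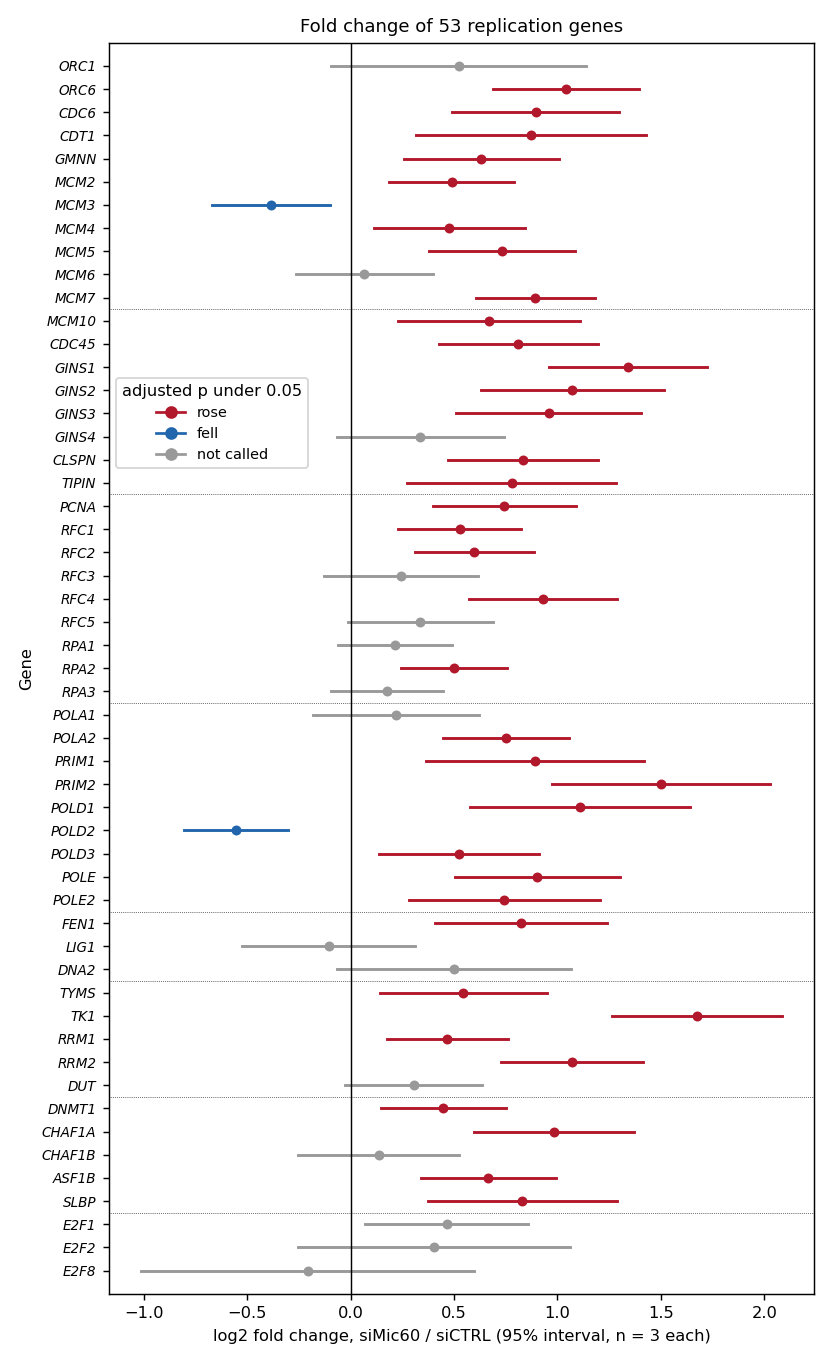
Log2 fold change of each of the 53 genes, siMic60 over siCTRL, with its 95% interval from edgeR's quasi-likelihood fit (n = 3 each), in red for the 36 genes that rose, blue for the 2 that fell and gray for the 15 not called. Dotted lines part the roles, and TK1 and PRIM2 lie furthest to the right, with TK1 at 1.68.

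Replication genes are classic E2F targets, so their promoters were read for the letters TTTCCCGC, TTTCGCGC, TTTGCCGC and TTTGGCGC, on both strands. RefSeq windows of GRCh38.p14, 250 bases before to 50 bases after each start, were at hand for 46 of the 54 genes. At least 1 such word was in a window of 25 of the 46 genes (54.3%), against 694 of the 10617 tested genes with a window (6.54%) and 3.99% of all 27305 genes with one. Within the list, they were in 16 of 32 genes that rose, in MCM3 but not POLD2 of the 2 that fell, and in 7 of 11 that were not called. UHRF1, which has no row and no call, is the remaining gene of the 46 and of the 25. TK1, RRM2 and PRIM2, which rose, held none of them in these windows, which says only that these letters were not there. In the 250 bases before the start alone, 18 of the 46 genes (39.1%) held a word, against 5.53% of tested genes. There, words were in 9 of 32 genes that rose and in 7 of 11 that were not called. A word that crosses the start is not counted in this part. The CCAAT word was in 28 of the 46 genes (60.9%), against 43.3% of tested genes. The words TTTGAA and TTCGAA, letters of the CHR element of many mitosis genes, were in 4 of the 46 (8.70%), against 15.4% of tested genes and 72.4% of 29 mitosis genes. These matches describe letters and are not evidence of binding, and they played no part in the choice of the genes.

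The stretches below show E2F-type words, which differ in letters between genes, for genes of each call. All were picked from genes that hold such a word. They run 5′ to 3′ on the gene's own strand, with the E2F-type words in capitals. The count table uses another build (hg19, GRCh37), so these coordinates are those of the RefSeq windows. MCM7, CDT1, GINS2, PCNA, POLA2 and TYMS rose, MCM3 fell, and MCM6 and E2F1 were not called. The stretches lie at chr7:100101388-100101447 (minus strand) for MCM7, chr16:88803728-88803787 (plus strand) for CDT1, chr16:85688952-85689011 (minus strand) for GINS2, chr20:5126648-5126707 (minus strand) for PCNA, chr11:65261883-65261942 (plus strand) for POLA2 and chr18:657588-657647 (plus strand) for TYMS. Those of the genes that did not rise lie at chr6:52284733-52284792 (minus strand) for MCM3, chr2:135876496-135876555 (minus strand) for MCM6 and chr20:33686376-33686435 (minus strand) for E2F1.
MCM7: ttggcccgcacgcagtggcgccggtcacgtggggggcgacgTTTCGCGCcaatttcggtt
CDT1: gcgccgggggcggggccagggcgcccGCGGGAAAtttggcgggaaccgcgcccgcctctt
GINS2: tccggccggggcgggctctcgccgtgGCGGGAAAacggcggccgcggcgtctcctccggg
PCNA: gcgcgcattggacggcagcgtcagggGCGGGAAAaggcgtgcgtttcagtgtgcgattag
POLA2: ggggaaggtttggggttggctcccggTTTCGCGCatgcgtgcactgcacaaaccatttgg
TYMS: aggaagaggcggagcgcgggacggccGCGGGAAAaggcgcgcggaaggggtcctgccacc
MCM3: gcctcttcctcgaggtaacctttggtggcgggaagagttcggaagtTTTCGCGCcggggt
MCM6: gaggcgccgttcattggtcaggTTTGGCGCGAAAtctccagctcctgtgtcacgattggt
E2F1: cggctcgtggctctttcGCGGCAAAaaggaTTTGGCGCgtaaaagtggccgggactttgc
MCM7 and MCM3, subunits of 1 helicase that moved in opposite directions, hold the same 8 letters, TTTCGCGC, close to the start. MCM6 holds 2 overlapping words in the capitals shown, and E2F1 holds 2 separate ones.

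Of the 11 genes that license origins, 8 rose, 1 fell and 2 were not called. Their median log2 fold change was 0.63, and their summed level was 651 ± 79.6 CPM in siMic60 and 466 ± 61.4 CPM in siCTRL libraries (SD, n = 3 each). ORC6, a small subunit of the origin recognition complex, was at 37.9, 35.2 and 30.1 CPM in the siMic60 libraries, against 13.3, 19.3 and 17.5 CPM in the siCTRL libraries. The groups did not overlap, and ORC6 rose 2.06-fold (95% interval 1.61 to 2.63, adjusted p = 0.00021). ORC1, the subunit that is made afresh in G1, was at 5.06, 5.51 and 4.61 CPM in siMic60 against 3.24, 2.88 and 4.44 CPM in siCTRL. Its siMic60 libraries were all above its siCTRL libraries, but its log2 fold change of 0.52 did not pass (95% interval −0.10 to 1.14, adjusted p = 0.179). ORC1 had at most 45 counts in a library.

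The loaders and their inhibitor moved in the same direction. CDC6, the ATPase that loads the helicase, was at 37.3, 30.7 and 22.9 CPM in siMic60 against 13.4, 18.1 and 17.1 CPM in siCTRL and rose 1.86-fold (adjusted p = 0.0019). CDT1, its partner, whose promoter word is shown above, was at 35.1, 23.7 and 17.3 CPM in siMic60 against 9.11, 14.01 and 18.2 CPM in siCTRL. The siMic60 replicate 3 library lay below the highest siCTRL library, and CDT1 rose 1.83-fold (adjusted p = 0.0172). This call was lost without siMic60 replicate 1 (log2 0.58, adjusted p = 0.101) or without siCTRL replicate 1 (log2 0.64, adjusted p = 0.0598). GMNN, the geminin that binds CDT1 and blocks relicensing, was at 56.6, 44.2 and 49.2 CPM in siMic60 against 23.7, 32.1 and 40.8 CPM in siCTRL and rose 1.55-fold (adjusted p = 0.0112), with no overlap. Per 100 GMNN counts there were 62.1, 53.7 and 35.1 CDT1 counts in siMic60 libraries, against 38.4, 43.6 and 44.7 in siCTRL libraries, so this ratio overlapped between the groups.

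The 6 subunits of the MCM2 to MCM7 helicase, which form 1 ring with a copy of each, did not move together. MCM7 was at 159, 149 and 132 CPM in the siMic60 libraries, against 68.4, 75.9 and 92.5 CPM in the siCTRL libraries. It rose 1.86-fold (95% interval 1.52 to 2.27, adjusted p = 0.000127), with a wide gap between the groups. MCM3 was at 73.3, 92.9 and 69.4 CPM in siMic60 against 110.3, 95.6 and 102 CPM in siCTRL. All of its siMic60 libraries lay below all of its siCTRL libraries, and MCM3 fell to 76.7% of the siCTRL level (ratio 0.767, 95% interval 0.630 to 0.933, adjusted p = 0.0358). That call was lost without siMic60 replicate 1 (log2 −0.33, adjusted p = 0.117), siMic60 replicate 3 (−0.30, adjusted p = 0.139), siCTRL replicate 1 (−0.33, adjusted p = 0.0851) or siCTRL replicate 3 (−0.40, adjusted p = 0.0684), while its sign was negative in every alternative tried. MCM5 rose 1.66-fold (adjusted p = 0.00307), with levels of 76.0, 64.1 and 50.5 CPM in siMic60 against 36.4, 32.4 and 45.7 CPM in siCTRL. MCM2 was at 63.6, 60.8 and 50.3 CPM in siMic60 against 34.9, 44.4 and 45.1 CPM in siCTRL, with no overlap, and rose 1.403-fold (adjusted p = 0.0146). Its call was lost without siMic60 replicate 1 (log2 0.43, adjusted p = 0.0562). MCM4 was at 140.0, 121 and 105 CPM in siMic60 against 62.9, 92.4 and 107 CPM in siCTRL and rose 1.39-fold (adjusted p = 0.0413). Its groups overlapped at siMic60 replicate 3 and siCTRL replicate 3, and its call was lost without siMic60 replicate 1, siMic60 replicate 2, siCTRL replicate 1 or siCTRL replicate 2 (log2 0.38, 0.50, 0.29 and 0.51 in that order). MCM6 was at 43.7, 30.7 and 36.4 CPM in siMic60 against 30.2, 36.9 and 38.5 CPM in siCTRL, with a log2 fold change of 0.07 (95% interval −0.26 to 0.40, adjusted p = 0.772).

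The uneven change showed in the make-up of the ring's mRNAs within each library. Of all MCM2 to MCM7 counts, MCM3 made up 13.2%, 17.9% and 15.6% in siMic60 libraries, against 32.1%, 25.3% and 23.6% in siCTRL libraries. MCM7 made up 28.6%, 28.8% and 29.8% in siMic60 libraries, against 19.9%, 20.1% and 21.5% in siCTRL libraries. MCM7 was the largest part in all 3 siMic60 libraries, against MCM3 in siCTRL replicates 1 and 2 and MCM4 in siCTRL replicate 3. A share does not depend on the scaling of a library, and these shares are given as a description, with no test of their own.

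**Figure D3:**
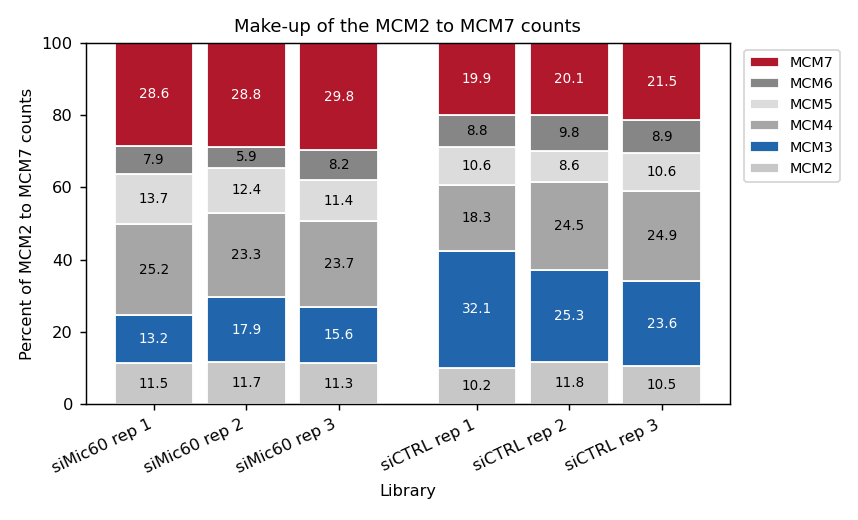
Percent of the MCM2 to MCM7 counts that came from each subunit (stacked segments, with the percent printed) in each library, siMic60 left of siCTRL. The blue MCM3 segment is 13.2% to 17.9% in siMic60 and 23.6% to 32.1% in siCTRL libraries, and the red MCM7 segment is 28.6% to 29.8% in siMic60 and 19.9% to 21.5% in siCTRL libraries.

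Of the 8 genes of helicase activation and fork protection, 7 rose and none fell, with a median log2 fold change of 0.82. Their summed level was 218 ± 28.5 CPM in siMic60 and 120 ± 24.4 CPM in siCTRL libraries (SD, n = 3 each). The 4 GINS subunits, which join CDC45 and the MCM ring in the active helicase, gave different values. GINS1 was at 38.6, 36.7 and 29.5 CPM in the siMic60 libraries, against 10.7, 16.5 and 14.2 CPM in the siCTRL libraries. Its lowest siMic60 library was well above its highest siCTRL library, and it rose 2.53-fold (95% interval 1.94 to 3.30, adjusted p = 4.25e-05). GINS2, at 19.5, 26.6 and 18.3 CPM in siMic60 against 7.91, 12.4 and 10.4 CPM in siCTRL, rose 2.10-fold (adjusted p = 0.000978). GINS3, at 24.2, 19.8 and 14.8 CPM in siMic60 against 8.27, 11.3 and 10.6 CPM in siCTRL, rose 1.94-fold (adjusted p = 0.00241). GINS4 was at 21.6, 18.2 and 16.8 CPM in siMic60 against 11.4, 15.9 and 17.5 CPM in siCTRL. Its groups overlapped, and its log2 fold change of 0.34 did not pass (95% interval −0.07 to 0.74, adjusted p = 0.185). Whether GINS4 differed from the other subunits was not tested.

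CDC45 was at 18.9, 17.5 and 15.4 CPM in siMic60 against 8.63, 10.4 and 10.48 CPM in siCTRL and rose 1.75-fold (adjusted p = 0.00272). CLSPN, the claspin that travels with the fork and relays the checkpoint signal, was at 79.1, 89.5 and 61.2 CPM in siMic60 against 32.6, 48.9 and 47.5 CPM in siCTRL and rose 1.78-fold (adjusted p = 0.00151). Neither group of libraries reached into the other for these genes. MCM10, which helps start the helicase, was at 19.0, 17.5 and 17.9 CPM in siMic60 against 7.91, 11.9 and 14.4 CPM in siCTRL and rose 1.59-fold (adjusted p = 0.0201). TIPIN, the partner of TIMELESS at the fork, was at 11.5, 11.5 and 11.6 CPM in siMic60 against 4.43, 7.63 and 8.14 CPM in siCTRL and rose 1.72-fold (adjusted p = 0.0187). The siMic60 libraries hardly differed for these genes and the siCTRL libraries did, with replicate 1 the lowest. The MCM10 call was lost without siMic60 replicate 1 (log2 0.64), siMic60 replicate 3 (0.68) or siCTRL replicate 1 (0.46), and the TIPIN call without siMic60 replicate 3 (0.77) or siCTRL replicate 1 (0.55), at adjusted p of 0.0531 and 0.0659 for TIPIN.

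Of the 9 genes of the clamp, its loader and the single-strand binding complex, 5 rose, none fell and 4 were not called. PCNA, the sliding clamp of the fork polymerases, was at 113, 115 and 115 CPM in the siMic60 libraries, against 48.2, 76.3 and 80.9 CPM in the siCTRL libraries. The siMic60 libraries lay close together, whereas siCTRL replicate 1 was far below the other siCTRL libraries. PCNA rose 1.67-fold (95% interval 1.32 to 2.13, adjusted p = 0.00237), and without siCTRL replicate 1 its log2 fold change was 0.54 (adjusted p = 0.00254), against 0.74 with all libraries. Of the clamp loader, RFC1, the large subunit, was at 77.3, 96.4 and 98.0 CPM in siMic60 against 59.6, 73.5 and 55.7 CPM in siCTRL and rose 1.44-fold (adjusted p = 0.00848). Here siCTRL replicate 3 and not replicate 1 was the lowest siCTRL library. RFC2 rose 1.51-fold (adjusted p = 0.00293) and RFC4 rose 1.91-fold (adjusted p = 0.000581). RFC4 was at 32.96, 38.1 and 28.1 CPM in siMic60 against 14.1, 18.4 and 19.5 CPM in siCTRL, so its groups were clearly apart. RFC3 and RFC5, also small subunits, had log2 fold changes of 0.24 (95% interval −0.13 to 0.61, adjusted p = 0.299) and 0.34 (95% interval −0.01 to 0.69, adjusted p = 0.124). Of replication protein A, which coats single-stranded DNA, RPA2 was at 82.6, 90.1 and 75.1 CPM in siMic60 against 57.2, 61.8 and 56.3 CPM in siCTRL and rose 1.41-fold (adjusted p = 0.00472). Its partners RPA1 and RPA3 had log2 fold changes of 0.22 (95% interval −0.06 to 0.49, adjusted p = 0.215) and 0.18 (95% interval −0.09 to 0.45, adjusted p = 0.302), with overlapping groups.

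Among the 9 genes of the polymerases and primase, 7 rose, POLD2 fell and POLA1 was not called. Their median log2 fold change was 0.75, but their summed level was 299 ± 16.4 CPM in siMic60 and 279 ± 34.0 CPM in siCTRL libraries (SD, n = 3 each), since POLD2 made up a large part of it. PRIM2, the large subunit of primase, was at 12.9, 11.01 and 9.69 CPM in the siMic60 libraries, against 3.00, 4.503 and 4.31 CPM in the siCTRL libraries. It rose 2.83-fold (95% interval 1.97 to 4.07, adjusted p = 0.000268) on 84 to 90 counts in each siMic60 library and 25 to 36 counts in each siCTRL library. PRIM1, the subunit that makes the RNA primer, was at 9.66, 8.57 and 9.69 CPM in siMic60 against 3.596, 5.88 and 5.55 CPM in siCTRL and rose 1.86-fold (adjusted p = 0.011). Its 3′ end overlaps the highly expressed NACA on the same strand, so its counts are uncertain. The groups did not overlap for either primase gene. POLA2, the regulatory subunit of polymerase alpha, was at 35.9, 46.7 and 40.1 CPM in siMic60 against 22.3, 26.0 and 24.8 CPM in siCTRL and rose 1.68-fold (adjusted p = 0.000902), while POLA1, the catalytic subunit, had a log2 fold change of 0.22 (95% interval −0.18 to 0.62, adjusted p = 0.396).

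Polymerase delta showed the other split within a complex. POLD1, its catalytic subunit, was at 11.8, 10.6 and 7.96 CPM in siMic60 against 3.72, 5.003 and 5.30 CPM in siCTRL, and POLD2, the subunit that holds POLD1 and POLD3 together, was at 118, 109 and 106 CPM in siMic60 against 156, 152 and 181 CPM in siCTRL. The groups did not overlap for either gene, in opposite directions. POLD1 rose 2.16-fold (95% interval 1.49 to 3.12, adjusted p = 0.00295), and POLD2 fell to 68.2% of the siCTRL level (ratio 0.682, 95% interval 0.572 to 0.812, adjusted p = 0.00211). Per 100 POLD2 counts there were 9.97, 9.78 and 7.51 POLD1 counts in siMic60 libraries, against 2.39, 3.29 and 2.93 in siCTRL libraries. The fall of POLD2 and the rise of POLD1 kept their calls in every alternative tried. POLD1 met the minimum of 50 counts only in siMic60 libraries, so that alternative gives no separate support for its rise. POLD3, an accessory subunit, was at 49.7, 35 and 38.2 CPM in siMic60 against 20.9, 32.3 and 32.2 CPM in siCTRL and rose 1.44-fold (adjusted p = 0.0355), a call that was lost without siMic60 replicate 1 (log2 0.37), siMic60 replicate 3 (0.57) or siCTRL replicate 1 (0.34). POLE, the catalytic subunit of the leading-strand polymerase epsilon, was at 35.3, 34.5 and 32.7 CPM in siMic60 against 12.2, 21.8 and 20.8 CPM in siCTRL and rose 1.87-fold (adjusted p = 0.00166). POLE2, its second subunit, rose 1.67-fold (adjusted p = 0.0147), and its adjusted p was 0.0516 without siMic60 replicate 3, at a log2 fold change of 0.71.

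**Figure D4:**
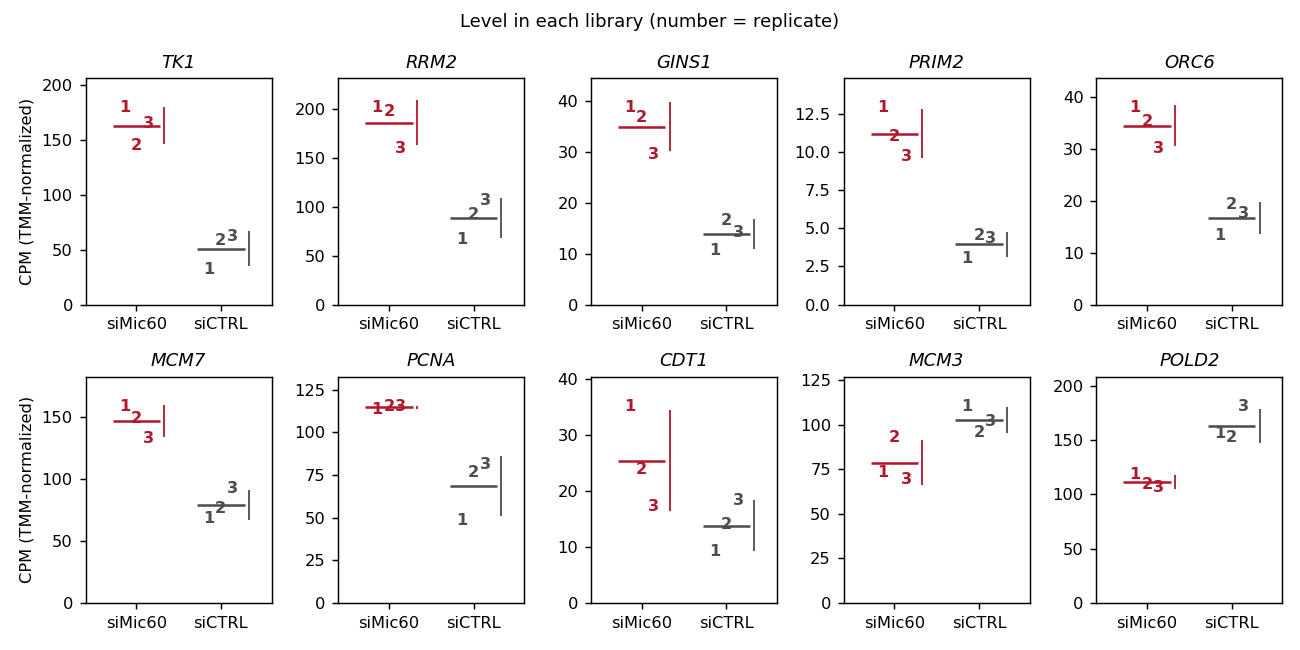
CPM of 10 replication genes in each library, with siMic60 left of siCTRL in each panel and each number marking that replicate. Horizontal lines are means, vertical lines show 1 SD on either side (n = 3), and each axis starts at 0. The groups are apart in all panels but CDT1, siCTRL replicate 1 is the lowest siCTRL library in all panels but MCM3 and POLD2, and in those 2 panels siMic60 is the lower group.

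Okazaki fragment maturation had 1 gene that rose among 3. FEN1, the flap endonuclease, was at 115, 199 and 105 CPM in siMic60 against 71.0, 87.6 and 78.3 CPM in siCTRL. The siMic60 replicate 2 library was far above the others, yet the groups did not overlap, and FEN1 rose 1.77-fold (adjusted p = 0.00421). Without siMic60 replicate 2, its log2 fold change was 0.49 (adjusted p = 0.0146), against 0.82 with all libraries. DNA2, a nuclease for long flaps, had a log2 fold change of 0.50 (95% interval −0.07 to 1.07, adjusted p = 0.159), and LIG1, the ligase that seals the fragments, one of −0.11 (95% interval −0.52 to 0.31, adjusted p = 0.713). Both had overlapping groups.

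The 5 genes of deoxynucleotide supply held the largest rise of the list. TK1, the cytosolic thymidine kinase of the salvage pathway, was at 179, 146 and 165 CPM in the siMic60 libraries, against 32.4, 58.7 and 62.4 CPM in the siCTRL libraries. Its lowest siMic60 library was far above its highest siCTRL library, and TK1 rose 3.19-fold (95% interval 2.40 to 4.25, adjusted p = 1.11e-05). RRM2, the S phase subunit of ribonucleotide reductase, was at 201, 197 and 159 CPM in siMic60 against 66.2, 92.2 and 107 CPM in siCTRL and rose 2.10-fold (95% interval 1.66 to 2.67, adjusted p = 0.000122). RRM1, the large subunit of the same enzyme, was at 279.6, 302 and 222 CPM in siMic60 against 167, 195 and 218 CPM in siCTRL. Its groups came close without overlap, and it rose 1.38-fold (adjusted p = 0.0157), a call that was lost without siMic60 replicate 2 (log2 0.38, adjusted p = 0.0613). Per 100 RRM1 counts there were 71.8, 65.2 and 71.9 RRM2 counts in siMic60 libraries, against 39.5, 47.2 and 49.0 in siCTRL libraries.

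TYMS, the thymidylate synthase that makes the same nucleotide as TK1 from scratch, was at 137, 136 and 108 CPM in siMic60 against 56.2, 104 and 101 CPM in siCTRL. It rose 1.46-fold (adjusted p = 0.036), with siCTRL replicate 1 well below the other siCTRL libraries. The call was lost without siMic60 replicate 1 (log2 0.50), siMic60 replicate 2 (0.51) or siCTRL replicate 1 (0.31). TYMS overlaps ENOSF1 on the opposite strand at its 3′ end, and no source used here states whether the counting used strand. ENOSF1 had 224, 305 and 308 counts in siMic60 libraries, against 479, 420 and 396 in siCTRL libraries, the opposite direction to TYMS. Per 100 TYMS counts there were 131, 107 and 153 TK1 counts in siMic60 libraries, against 57.6, 56.6 and 61.7 in siCTRL libraries. TK1 counts thus exceeded TYMS counts in all 3 siMic60 libraries and in no siCTRL library. DUT, which removes dUTP, was at 129.9, 132 and 119.7 CPM in siMic60 against 74.7, 117 and 117 CPM in siCTRL. Its groups did not overlap, but its log2 fold change of 0.30 did not pass (95% interval −0.03 to 0.64, adjusted p = 0.144). Over the 5 genes, the summed level was 871 ± 84.4 CPM in siMic60 and 523 ± 111 CPM in siCTRL libraries (SD, n = 3 each).

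Of the 5 measured genes that copy chromatin and DNA methylation, 4 rose. CHAF1A, the large subunit of the histone chaperone CAF-1, was at 62.2, 58.4 and 41.6 CPM in siMic60 against 20.9, 28.02 and 33.04 CPM in siCTRL and rose 1.98-fold (adjusted p = 0.000723). CHAF1B, its partner in CAF-1, had a log2 fold change of 0.14 (95% interval −0.25 to 0.52, adjusted p = 0.601), with overlapping groups. ASF1B, which hands histones to CAF-1, was at 73.1, 80.04 and 64.3 CPM in siMic60 against 35.1, 50.03 and 52.0 CPM in siCTRL and rose 1.59-fold (adjusted p = 0.00346). SLBP, which binds the stem-loop of histone mRNAs, was at 20.7, 22.0 and 20.3 CPM in siMic60 against 7.67, 12.5 and 15.3 CPM in siCTRL and rose 1.78-fold (adjusted p = 0.007). Both sets of siMic60 libraries stood clear of the siCTRL libraries. DNMT1, the maintenance DNA methyltransferase, was at 328, 456 and 305 CPM in siMic60 against 253, 279.9 and 264 CPM in siCTRL and rose 1.37-fold (adjusted p = 0.0223), with siMic60 replicate 2 far above the rest. Its call was lost without that library (log2 0.26, adjusted p = 0.103) or without siCTRL replicate 3 (0.44, adjusted p = 0.0604).

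None of the 3 E2F factors on the list passed the edgeR test, and none passed in DESeq2 or limma. Before adjustment, E2F1 alone was under 0.05. E2F1, an activator, was at 45.7, 50.8 and 30.8 CPM in siMic60 against 24.5, 33.4 and 34.3 CPM in siCTRL. The siMic60 replicate 3 library lay among the siCTRL libraries, and the log2 fold change was 0.46 (95% interval 0.07 to 0.86, adjusted p = 0.0633). Without siMic60 replicate 3 it was 0.66 and passed (adjusted p = 0.0116), so the call turned on that library. It also passed with no minimum count (adjusted p = 0.0115). E2F2, also an activator, had at most 37 counts in a library and a log2 fold change of 0.40 (95% interval −0.25 to 1.06, adjusted p = 0.333). E2F8, an atypical E2F that represses the same genes, was at 2.15, 2.08 and 2.77 CPM in siMic60 against 1.68, 3.25 and 3.21 CPM in siCTRL, with a log2 fold change of −0.21 (95% interval −1.01 to 0.60, adjusted p = 0.705). E2F8 had 14 to 26 counts in a library.

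Of 55 further replication genes, set as a list apart from the 53, 19 rose, 4 fell and 32 were not called, with a median log2 fold change of 0.28. Whether this list differed from the 53 genes was not tested. DTL, which marks CDT1 for destruction at loaded PCNA, was at 104, 84.6 and 72.1 CPM in siMic60 against 14.7, 20.1 and 22.2 CPM in siCTRL. It rose 4.56-fold (adjusted p = 2.39e-07), a larger fold than for any of the 53 genes. E2F7, the close relative of E2F8 and also a repressor, was at 27.1, 19.1 and 29.7 CPM in siMic60 against 6.11, 8.26 and 8.88 CPM in siCTRL and rose 3.27-fold (adjusted p = 2.05e-05). POLE3, a histone-fold subunit of polymerase epsilon, was at 220.2, 258 and 179 CPM in siMic60 against 84.98, 94.2 and 94.4 CPM in siCTRL and rose 2.40-fold (adjusted p = 6.6e-06). In none of these genes did the groups overlap. TOP1, the topoisomerase that relieves twist ahead of the fork, was at 718, 677 and 716 CPM in siMic60 against 1262, 1138 and 1140.4 CPM in siCTRL and fell to 59.6% of the siCTRL level (adjusted p = 5.28e-05). The others that fell were CMPK1, a nucleotide kinase, to 69.0% (adjusted p = 0.00581), E2F6, an E2F that represses, to 68.3% (adjusted p = 0.0128), and NME2, another nucleotide kinase, to 80.6% (adjusted p = 0.0244), whose reads can be shared with its neighbor NME1. Without siMic60 replicate 1, or without siMic60 replicate 3, 2 of the further genes fell.

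Genes of the later cell cycle and of its G1/S control were set beside the list. Of 35 mitosis genes, 23 rose and none fell, with a median log2 fold change of 0.61, beside 0.63 for the replication list. Whether the lists differed was not tested. The kinases PLK1 and AURKB rose 2.02-fold (adjusted p = 0.000112) and 1.95-fold (adjusted p = 0.000127), MYBL2, a transcription factor of G2 genes, rose 2.10-fold (adjusted p = 0.000628), and ESPL1, the separase that parts sister chromatids, rose 1.89-fold (adjusted p = 0.000679). Of 17 tested G1/S cyclins and regulators, 7 rose, 3 fell and 7 were not called. CDK2, the kinase that starts S phase, was at 268, 217 and 206 CPM in siMic60 against 36.6, 37.4 and 47.8 CPM in siCTRL and rose 5.67-fold (adjusted p = 1.04e-08). CDK6, a G1 kinase, was at 94.8, 55.1 and 62.1 CPM in siMic60 against 13.5, 21.6 and 23.4 CPM in siCTRL and rose 3.61-fold (adjusted p = 1.38e-05). Cyclins E1 and D1, which pair with these kinases, fell. CCNE1, cyclin E1, was at 4.45, 4.41 and 4.04 CPM in siMic60 against 9.23, 7.38 and 10.4 CPM in siCTRL, or 47.8% of the siCTRL level (adjusted p = 0.00323), and CCND1, cyclin D1, at 608, 597 and 483 CPM in siMic60 against 1114, 954 and 921 CPM in siCTRL, or 56.5% of the siCTRL level (adjusted p = 0.000106). CDKN2B, an inhibitor of CDK4 and CDK6, was at 18.6, 24.1 and 16.9 CPM in siMic60 against 62.2, 44.7 and 44.3 CPM in siCTRL. It fell to 39.5% of the siCTRL level (adjusted p = 3.34e-05). The other CDK inhibitors of the list did not fall. CDKN1A rose to 210.6% (adjusted p = 0.000114). CDKN2C rose to 150.5% (adjusted p = 0.0287), with overlapping groups. CDKN2A, at 122.5% (adjusted p = 0.0677), and CDKN1B, at 117.5% (adjusted p = 0.352), were not called.

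**Figure D5:**
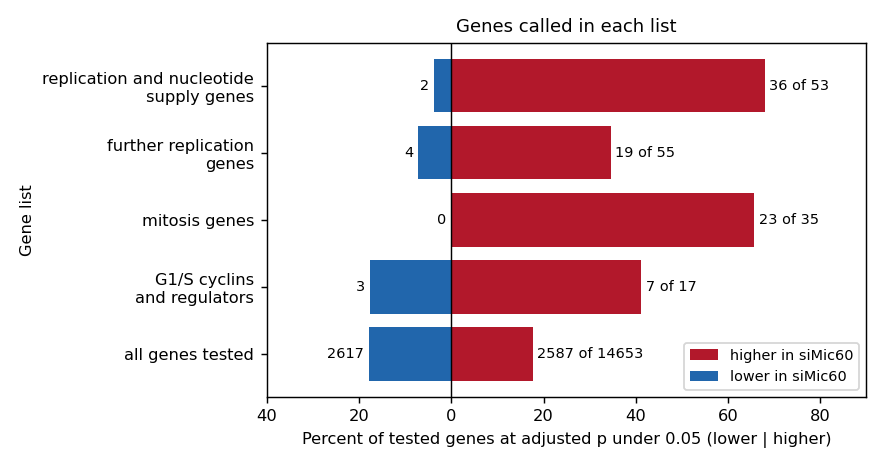
Percent of the tested genes of each list that rose (red, to the right) or fell (blue, to the left) in siMic60 against siCTRL at an adjusted p under 0.05, with the counts beside the bars. The replication list had 36 of 53 higher and 2 lower, the mitosis list 23 of 35 higher and 0 lower, and all genes tested 2587 of 14653 higher and 2617 lower.

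The 53 genes lie on 21 chromosomes. Some share reads or 3′ ends with a neighbor. Besides TYMS and PRIM1, the 3′ ends of RFC4, RFC5, GINS2 and CHAF1A overlap the expressed genes EIF4A2, WSB2, GSE1 and UBXN6 on the opposite strand, so the values of these members carry the same uncertainty. The 27 pseudogenes named after 12 of the members had 0 counts in every library, and whether their reads were given to the members was not tested.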

How the data were processed

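Gene expression was measured in 6 QuantSeq 3′ mRNA libraries of PC3 cells, 3 siMic60 and 3 siCTRL. The authors deposited counts per Ensembl gene, as whole numbers with no normalization. RSEM 1.2.3, DESeq2 and hg19 (GRCh37) are listed in the submitters' processing notes without their roles, and since RSEM estimates counts, the whole numbers may be rounded estimates. No source used here names the aligner, the annotation or the strand setting, and no batch is labelled. Symbols were assigned to 40337 of 57736 rows.

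The test was edgeR's quasi-likelihood test (edgeR 4.0.16, R 4.3.3) after TMM normalization, on genes with at least 10 counts in 3 or more of 6 libraries. Adjusted p-values (Benjamini-Hochberg) ran over all 14653 genes tested, with a threshold of 0.05. The step was tested on simulated data. Totals of 6644495 to 8779877 counts limit the precision of genes with few counts, and the intervals shown are 95% intervals. Alternatives were DESeq2 1.42.0, limma-trend (limma 3.58.1, prior count of 2), each library left out, a replicate block, scaling by DESeq2's size factors or by library totals, and a minimum of 50 counts or none. Chi-square per degree of freedom over all genes tested was 3.54 to 13.5 within groups, so no library was a copy of another. It was 3.54 between siCTRL replicates 2 and 3, against 10.8 and 13.5 between siCTRL replicate 1 and these. The siMic60 pairs gave 8.10 to 10.1. The siCTRL replicate 1 library thus stood apart from the other siCTRL libraries over all genes as well.

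The members and gene lists were chosen with earlier results of these data known. Named are all members, IMMT, and in each other list the 4 called genes with the smallest adjusted p and every called gene that moved against the majority of its list. Beside CDKN2B, the other CDK inhibitors of its list, CDKN1A, CDKN1B, CDKN2A and CDKN2C, are named as well. Promoter words were counted in Python 3.11.15, and for 58 of 62 member windows the bases after the start matched a GENCODE 29 transcript of that gene on the same strand.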

Additional observations from a re-analysis of the deposited data

How the results depend on the processing

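Of the 38 called genes of the list, 27 kept their call in all 13 alternatives, 11 lost it in at least 1, and none of the 38 changed sign. DESeq2, limma-trend and DESeq2's size factors in edgeR each called 36 genes as higher, all 36 of them shared with the edgeR result. With library totals, which put the median gene of the whole table at −0.055 on the log2 scale, 33 rose, and MCM4, POLD3 and TYMS were lost. With no minimum count 37 rose, E2F1 being the added gene (log2 0.47). With a minimum of 50 counts, which left 50 genes of the list in the test, 36 rose. PRIM1, PRIM2 and POLD1 reached 50 counts only in siMic60 libraries. They passed that filter only through the group where they were high, so it gives no separate support for their calls. Leaving out 1 library gave 30 to 35 genes that rose and 1 to 2 that fell, and a median log2 fold change of 0.49 to 0.75. Among the further replication genes, it gave 14 to 16 that rose and 2 to 5 that fell. Over all genes, it gave 2081 to 2300 that rose and 2067 to 2333 that fell.

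Replicate numbers did not pair the samples: same-numbered libraries deviated together with r = −0.10, −0.03 and 0.03. With the replicate block, 34 genes of the list rose and 1 fell, and MCM3 (log2 −0.39), MCM4 (0.50) and POLD3 (0.53) lost their calls. The summed level of the list by library totals was 3271 CPM in siMic60 and 2344 CPM in siCTRL libraries. ORC1, E2F2 and E2F8, none of which was called, had at most 45 counts in any library, and the part of depth in that was not tested. The part of siCTRL replicate 1 in the size of the rise beyond the values given was not tested.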
